A study of Homo sapiens with 8 samples.

Results

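The NF-kB transcription factors, their IkB inhibitors and feedback regulators were followed as 10 genes. These genes were taken by symbol from the 60595 genes in each of 2 deposited tables. They were the Rel subunit genes NFKB1, NFKB2, REL, RELA and RELB, the IkB genes NFKBIA, NFKBIB and NFKBIE, and the feedback genes TNFAIP3 and BIRC3. All 10 were found, and all 10 were tested by the authors in both tables. The cells were the established human line SUM159, from a triple-negative breast cancer, grown for all groups in medium with serum, insulin and the glucocorticoid hydrocortisone. The groups were shFoxO1 cells (an shRNA against the transcription factor FOXO1) in 10 uM olaparib, shCon cells (control shRNA) in 10 uM olaparib, and shCon cells in the solvent DMSO, each for 3 days. Olaparib inhibits the repair enzymes PARP1 and PARP2, and the series was designed around markers of response to such drugs and genes controlled by FOXO1, STAT3 and TOP2A. The labels list 2 libraries per group and do not say how many hairpins the lentivirus against FOXO1 carried. A group of shFoxO1 cells in DMSO is also labelled, and it was not analysed here.

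NF-kB proteins bind DNA as dimers of Rel subunits. RELA, REL and RELB activate transcription, while NFKB1 and NFKB2 encode long precursors that are cut to DNA-binding subunits and whose ankyrin repeats act as inhibitors until then. In resting cells IkB proteins hold the dimers in the cytoplasm. In the canonical arm an IKK kinase complex marks IkB for destruction, and in the non-canonical arm the kinase NIK (MAP3K14) starts the processing of NFKB2 and frees RELB. Several NF-kB and IkB genes are themselves targets of NF-kB, which makes the pathway refill its own inhibitors after a stimulus. In breast cancer cells NF-kB is known for cytokine production and survival under stress.

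Because several of these genes are known NF-kB targets, their promoters were searched for the letters NF-kB binds. Windows were taken from RefSeq (GRCh38.p14, the patch release of hg38) as the 250 bases before each listed transcription start, for 8 of the 10 genes, with 13 starts among them. RELB and NFKBIE had no entry. The 5 windows below, printed 5′ to 3′ on each gene's coding strand, are of the inhibitor gene NFKBIA, of the feedback genes TNFAIP3 and BIRC3 that varied over the widest ranges, and of the subunit genes NFKB1 and REL that were not called between shFoxO1 and shCon cells. Capitals mark matches to the kappaB consensus on either strand, with overlapping matches run together. They lie at chr14:35404750-35404999 on the minus strand (NFKBIA), chr6:137867009-137867258 on the plus strand (TNFAIP3), chr11:102317234-102317483 on the plus strand (BIRC3), chr4:102501109-102501358 on the plus strand (NFKB1, its first start) and chr2:60881324-60881573 on the plus strand (REL).
NFKBIA: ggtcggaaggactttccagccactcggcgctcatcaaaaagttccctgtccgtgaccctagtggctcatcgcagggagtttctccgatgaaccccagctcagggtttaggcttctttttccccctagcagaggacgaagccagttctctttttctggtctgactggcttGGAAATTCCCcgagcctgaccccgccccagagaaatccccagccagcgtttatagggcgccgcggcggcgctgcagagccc
TNFAIP3: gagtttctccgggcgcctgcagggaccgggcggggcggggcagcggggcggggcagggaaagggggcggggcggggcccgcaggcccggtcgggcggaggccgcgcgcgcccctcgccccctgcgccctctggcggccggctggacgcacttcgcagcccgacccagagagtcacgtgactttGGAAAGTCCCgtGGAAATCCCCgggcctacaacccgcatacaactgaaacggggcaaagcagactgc
BIRC3: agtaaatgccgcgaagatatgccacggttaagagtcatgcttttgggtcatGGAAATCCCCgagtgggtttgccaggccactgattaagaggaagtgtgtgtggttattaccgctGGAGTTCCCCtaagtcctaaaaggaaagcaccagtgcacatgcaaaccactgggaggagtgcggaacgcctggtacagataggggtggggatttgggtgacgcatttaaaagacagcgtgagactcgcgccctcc
NFKB1: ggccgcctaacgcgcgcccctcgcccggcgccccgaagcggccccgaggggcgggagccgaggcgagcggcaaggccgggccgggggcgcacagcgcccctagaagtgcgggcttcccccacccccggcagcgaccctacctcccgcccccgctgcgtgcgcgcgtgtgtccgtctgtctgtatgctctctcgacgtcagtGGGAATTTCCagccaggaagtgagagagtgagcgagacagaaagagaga
REL: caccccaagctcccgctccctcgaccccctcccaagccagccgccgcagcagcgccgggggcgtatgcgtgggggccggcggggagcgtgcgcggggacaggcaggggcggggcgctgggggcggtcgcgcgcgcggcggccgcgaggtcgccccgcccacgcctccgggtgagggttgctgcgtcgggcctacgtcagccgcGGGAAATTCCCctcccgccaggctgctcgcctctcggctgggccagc

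Of the 8 genes, 7 had a match to the kappaB consensus in at least 1 of their windows, against 11.8% of 27305 genes in the same RefSeq table. Counted by window this was 8 of 13, against 9.96% of 35116. The consensus was searched as GGGRNNYYCC, with R for A or G, Y for C or T and N for any base. The same 7 held a second form, GGGNNTTTCC, searched on both strands, against 2.12% of all genes. It allows any base after GGG, where the consensus asks for A or G, but overlapped the consensus at every match in these genes. This second form was chosen after the windows had been searched. The exception was RELA, with no match upstream of either listed start. NFKBIA had the single match GGGAATTTCC, read on the strand opposite to the gene and 81 to 72 bases before the start. TNFAIP3 carried GGGACTTTCC and GGGGATTTCC close together, also read on the opposite strand, 67 to 58 and 55 to 46 bases before its start. BIRC3 had its matches further out and on the opposite strand, GGGGATTTCC at 199 to 190 bases and GGGGAACTCC at 135 to 126 bases. NFKB2 had none before its first start and matches before both later starts, among them GGGACTTTCC at 21 to 12 bases. The second start of NFKB1 and the first of NFKBIB also had none. In the values that follow, REL was called higher with olaparib and the other genes with a match lower. With shFoxO1, NFKB1, REL and NFKBIB were not called and the other genes with a match were called higher. RELA, without a match, was likewise called lower with olaparib and higher with shFoxO1. So were RELB and NFKBIE, which had no window to search. A match here describes the letters of the window, and use of a site was not tested. The FOXO motif GTAAACA was found in 0 of the 13 windows on either strand and in 2.98% of all windows, which says only that these letters are not in these windows.

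**Figure D1:**
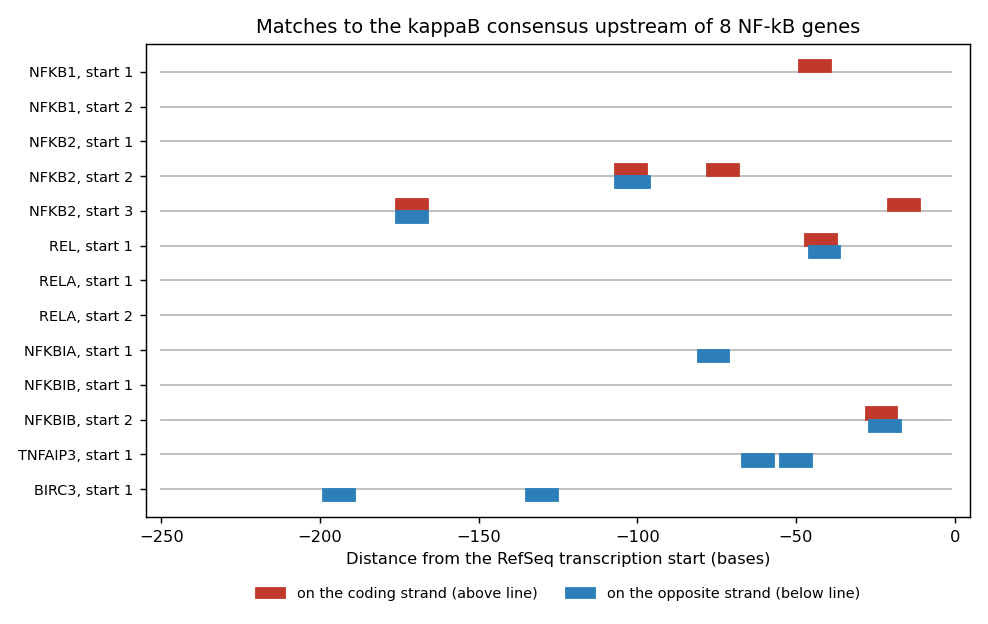
Positions of matches to the kappaB consensus in the 250 bases before each RefSeq transcription start of 8 NF-kB genes, with distance from the start on the x axis in bases and 1 line per start. Red boxes above the line are matches on the gene's coding strand and blue boxes below it on the opposite strand. RELA has no match. The first NFKB2 start, the second NFKB1 start and the first NFKBIB start have none, while the other starts of these genes have matches.

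Levels are in FPKM (fragments scaled to transcript length and to sequencing depth), which accounts for length, so levels of different genes can be set side by side. Each table gives 1 value per gene and group and no value per library, so no SD or n stands beside a level and the depth behind it is unknown. Calls of higher or lower are those with a q-value of 0.05 or less in the authors' deposited table, where q is the p-value adjusted over all tested genes. Nothing in the labels shows that a group's libraries are separate cultures, so q may measure technical spread. The group shCon in olaparib stands in both tables, with values 1.017 times higher in the table that holds shFoxO1. Both comparisons share this group, so a high or low value in it pushes their ratios in opposite directions. In bulk RNA, fewer cells that express a gene and less of its RNA per cell cannot be told apart.

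FOXO1 itself was at 17.5 FPKM in shFoxO1 cells and 89.2 FPKM in shCon cells, both in olaparib, lower in the cells with the shRNA against it (q-value 0.000244 by the authors' deposited table). The 6 markers of a mesenchymal breast cancer line, most of whose level was VIM, summed to 2378 FPKM in shFoxO1 olaparib, 3047 FPKM in shCon olaparib and 3181 FPKM in shCon DMSO cells. Among them EGFR was called lower with olaparib and higher with shFoxO1, FN1 was called higher with shFoxO1, and VIM and AXL were called lower with shFoxO1. The 7 epithelial or luminal markers summed to 228 FPKM in shFoxO1 olaparib, 469 FPKM in shCon olaparib and 494 FPKM in shCon DMSO cells. CDH1 and PGR were listed at 0 in all 3 groups, and EPCAM and ESR1 were under 1 FPKM. KRT8 was called lower with shFoxO1, at 93.7 FPKM against 331 FPKM with shCon in olaparib, as was ERBB2, and KRT18 was called lower with olaparib, at 110 FPKM against 213 FPKM in DMSO. Of 10 leukocyte markers 8 were under 1 FPKM in all 3 groups, and CD3D, MS4A1, LYZ and NKG7 were listed at 0 in each. Their summed level, most of it CD68, was 39.7 FPKM in shFoxO1 olaparib, 15.5 FPKM in shCon olaparib and 20.5 FPKM in shCon DMSO cells. PTPRC was at 0 FPKM in shFoxO1 olaparib, 0.142 FPKM in shCon olaparib and 1.34 FPKM in shCon DMSO cells, and was not tested by the authors. The 4 endothelial markers summed to 4.34, 0.475 and 5.34 FPKM in the same groups, mostly KDR. KDR was called lower with olaparib and higher with shFoxO1. PECAM1 was called higher with shFoxO1, at 1.80 FPKM against 0.0937 FPKM with shCon in olaparib. The part of these markers in the NF-kB values was not tested.

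In control cells, olaparib was accompanied by lower levels of nearly the whole group. Of the 10 genes, 9 were called lower and 1, REL, higher, against 23.1% lower and 15.6% higher among all 14841 tested genes. The median log2 ratio of olaparib over DMSO was -1.68 over the 10 genes and -0.07 over all tested genes. The falls ran from 1.85-fold for NFKBIA to 20.5-fold for BIRC3. Under olaparib, shFoxO1 cells had higher levels than shCon cells of most of the group. Of the 10 genes, 7 were called higher with shFoxO1, against 22.6% higher and 19.8% lower among all 14660 tested genes, and NFKB1, REL and NFKBIB were not called. The median log2 ratio of shFoxO1 over shCon was 1.56 over the 10 genes and 0.01 over all tested genes. The q-values of the 9 falls were all 0.000284 and those of the 7 rises all 0.000244 by the authors' deposited tables, because each of these genes sat at the tables' smallest p, 5e-05, which 2610 and 3001 genes shared. Among these genes q therefore gives no order, and they are described here by the size of the ratio.

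**Figure D2:**
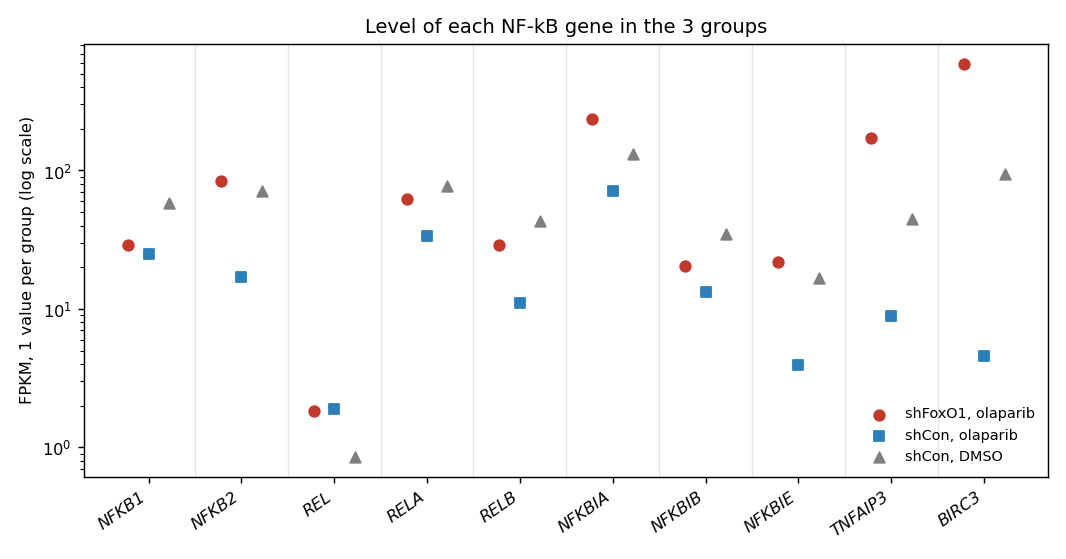
FPKM of the 10 NF-kB genes on a log axis, with shFoxO1 olaparib (red circles), shCon olaparib (blue squares) and shCon DMSO (grey triangles), 1 value per group and the shFoxO1 values divided by 1.017. The blue square is the lowest point for every gene except REL, and BIRC3 spans the widest range, with 591 FPKM in shFoxO1 olaparib and 4.58 FPKM in shCon olaparib.

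The activating subunit RELA, partner of the most common NF-kB dimer, was at 33.5 FPKM in shCon cells in olaparib and 77.4 FPKM in shCon cells in DMSO, 2.31-fold lower with the drug. With shFoxO1 it was at 63.4 FPKM, against 34.1 FPKM with shCon, a rise of 1.86-fold (log2 ratio 0.90). The shFoxO1 level thus lay between the levels of control cells with and without drug. RELA-DT, a transcript on the other side of the RELA start, was listed with the same region at 0.0757 FPKM in shFoxO1 cells and 1.58 FPKM in shCon cells in olaparib, far under RELA, and was not called (q-value 0.180 by the authors' deposited table). REL, the subunit best known from lymphocytes, was the least abundant of the group in every condition. It was at 1.90 FPKM in olaparib and 0.851 FPKM in DMSO in shCon cells, a rise of 2.23-fold with a q-value of 0.0126 by the authors' deposited table. That call was lost, at an adjusted p of 0.0515, when every gene in the authors' deposited table entered the adjustment. With shFoxO1 REL was at 1.85 FPKM, against 1.93 FPKM with shCon (q-value 0.929 by the authors' deposited table). AC010733.2, listed with the same region as REL, was at 1.12 FPKM in olaparib and 0.652 FPKM in DMSO in shCon cells. It was called neither with olaparib (q-value 0.170) nor with shFoxO1 (q-value 0.712 by the authors' deposited tables). How reads were divided between it and REL cannot be checked.

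NFKB1, whose precursor gives the p50 subunit, was at 24.8 FPKM in olaparib and 58.2 FPKM in DMSO in shCon cells, 2.34-fold lower with the drug. In contrast to RELA it was not called with shFoxO1, at 29.5 FPKM against 25.2 FPKM with shCon (log2 ratio 0.23, q-value 0.244 by the authors' deposited table). NFKB2, the precursor of p52 and the subunit of the non-canonical arm, moved much further than NFKB1 in both tables. It was at 17.0 FPKM in olaparib and 71.4 FPKM in DMSO in shCon cells, a 4.20-fold fall. In shFoxO1 cells it stood at 84.8 FPKM, against 17.3 FPKM with shCon, a 4.91-fold rise. RELB, the partner of p52, was at 11.1 FPKM in olaparib and 43.2 FPKM in DMSO in shCon cells, 3.90-fold lower. RELB reached 29.6 FPKM with shFoxO1, against 11.3 FPKM with shCon, 2.63-fold higher. The differences between the ratios of these genes could not be tested, since no value per library was used.

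**Figure D3:**
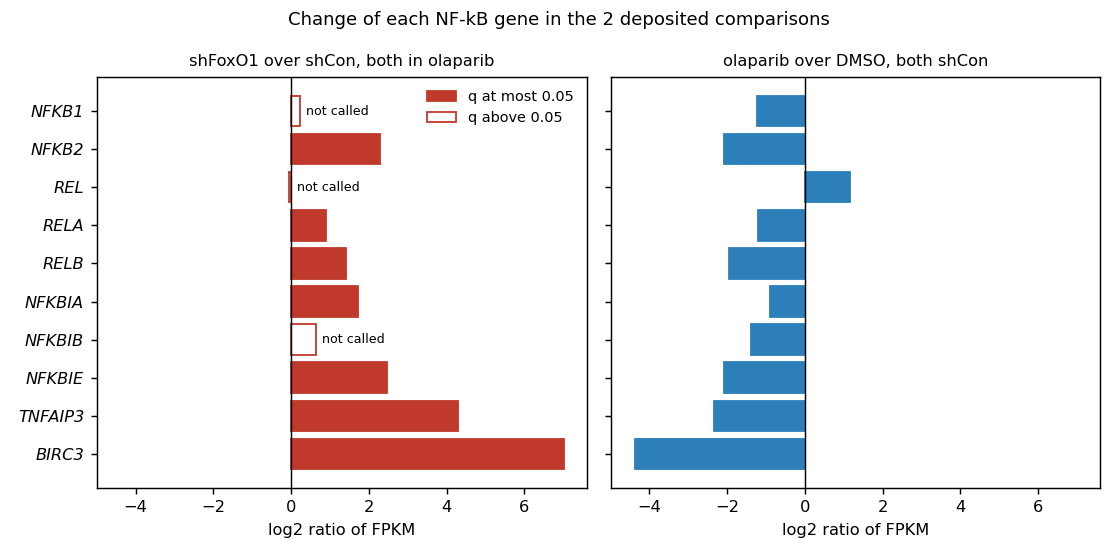
Log2 ratio of FPKM for the 10 NF-kB genes, shFoxO1 over shCon in olaparib on the left and olaparib over DMSO in shCon cells on the right, filled where the authors' q-value was at most 0.05. BIRC3 has the longest bar on both sides (7.01 and -4.36), and the unfilled bars on the left are NFKB1, REL and NFKBIB.

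The mixture of Rel transcripts differed between the groups. The 5 subunit genes summed to 206 FPKM in shFoxO1 olaparib, 88.3 FPKM in shCon olaparib and 251 FPKM in shCon DMSO cells, all on the scale of the table of olaparib against DMSO, called the first table here. NFKB2 made up 40.5% of the sum in shFoxO1 olaparib, 19.2% in shCon olaparib and 28.4% in shCon DMSO cells. NFKB1 made up 14.1%, 28.1% and 23.2% in the same groups. RELA held a steadier share, of 30.3%, 37.9% and 30.8%. NFKB2 transcripts were thus 2.87 times those of NFKB1 in shFoxO1 olaparib cells, 0.684 times in shCon olaparib cells and 1.23 times in shCon DMSO cells. REL never exceeded 2.15% of the sum. These are shares of RNA per length and not of protein, and no spread over libraries can be given for them.

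**Figure D4:**
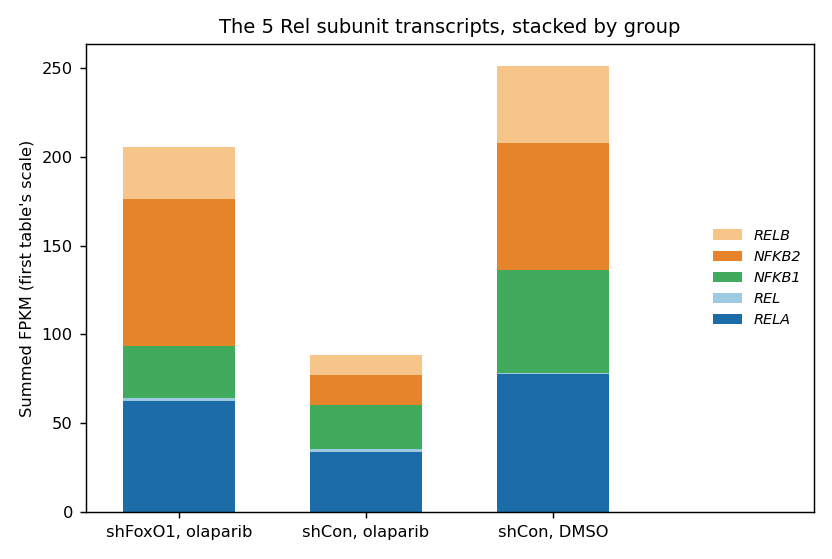
FPKM of the 5 Rel subunit genes stacked for shFoxO1 olaparib, shCon olaparib and shCon DMSO cells, the first divided by 1.017 to bring it to the first table's scale. The stacks reach 206, 88.3 and 251 FPKM, and NFKB2 in orange is the thickest layer in the first stack.

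Among the inhibitors, NFKBIA encodes IkB-alpha, the fast inhibitor that NF-kB resynthesises within each round of signalling. It was the most abundant of the 10 genes in both shCon groups, at 71.4 FPKM in olaparib and 132 FPKM in DMSO, a fall of 1.85-fold and the smallest of the 9. With shFoxO1 it was at 239 FPKM, against 72.6 FPKM with shCon, a 3.29-fold rise. NFKBIE encodes IkB-epsilon, a slower inducible inhibitor, and was the least abundant of the 3 in both shCon groups. It was at 3.95 FPKM in olaparib and 16.7 FPKM in DMSO in shCon cells, 4.22-fold lower. NFKBIE was at 22.1 FPKM with shFoxO1, against 4.01 FPKM with shCon, 5.50-fold higher. NFKBIB, for the more constitutive IkB-beta, was at 13.3 FPKM in olaparib and 34.8 FPKM in DMSO in shCon cells, a 2.62-fold fall. Under the knockdown it was at 20.9 FPKM, against 13.5 FPKM with shCon, and missed the threshold (log2 ratio 0.63, q-value 0.0558 by the authors' deposited table). NFKBIB was listed with the same region as SIRT2, which was called in neither table at 21.0 to 28.7 FPKM over the 3 groups, and how reads were divided between them cannot be checked.

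The 3 IkB genes summed to 277 FPKM in shFoxO1 olaparib, 88.6 FPKM in shCon olaparib and 184 FPKM in shCon DMSO cells. Set against the summed subunits, this was 1.35, 1.00 and 0.732 FPKM of inhibitor transcript per FPKM of subunit transcript. NFKBIA alone was 3.77 times RELA in shFoxO1 olaparib, 2.13 times in shCon olaparib and 1.71 times in shCon DMSO cells. The ratio of summed inhibitor to summed subunit transcripts was therefore lowest in untreated control cells and highest in drug-treated knockdown cells. The summed subunits were lowest in drug-treated control cells. NFKBIA made up 84.76% of the inhibitor sum in shFoxO1 olaparib, 80.59% in shCon olaparib and 71.99% in shCon DMSO cells. NFKBIB made up 7.41%, 14.95% and 18.93% in the same groups, and NFKBIE 7.83%, 4.45% and 9.08%. The summed ratio thus mainly describes NFKBIA, and its order did not hold for NFKBIB or NFKBIE. Set against the summed subunits, NFKBIB was lowest in shFoxO1 olaparib cells and NFKBIE was lowest in shCon olaparib cells. NFKB1 and NFKB2, whose precursors also act as inhibitors, were counted as subunits only. These ratios and shares carry no test.

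TNFAIP3 encodes A20, a ubiquitin-editing enzyme that ends signalling from TNF and Toll-like receptors. It was at 8.82 FPKM in olaparib and 44.3 FPKM in DMSO in shCon cells, 5.02-fold lower with the drug. With shFoxO1 it was at 176 FPKM, against 8.98 FPKM with shCon, a 19.6-fold rise. A transcript listed with the same region, AL357060.1, was at 6.63 FPKM with shFoxO1 and 0.594 FPKM with shCon, and was not called (q-value 0.100 by the authors' deposited table). BIRC3 encodes cIAP2, a ubiquitin ligase that supports canonical signalling at the TNF receptor and, with TRAF2 and TRAF3, keeps NIK low. It was at 4.58 FPKM in olaparib and 94.0 FPKM in DMSO in shCon cells, the 93rd lowest ratio of 14667 genes. BIRC3 was at 602 FPKM with shFoxO1, against 4.67 FPKM with shCon, a 129-fold rise and the 41st highest ratio of 14428 genes. BIRC2, which encodes the related ligase cIAP1, lies beyond BIRC3 after a gap of 7810 bases on chromosome 11. It was at 36.7 FPKM in olaparib and 26.1 FPKM in DMSO in shCon cells, called higher with a log2 ratio of 0.49 (q-value 0.00700 by the authors' deposited table). With shFoxO1 BIRC2 was at 41.3 FPKM, against 37.4 FPKM with shCon, and was not called (q-value 0.498 by the authors' deposited table). BIRC3 was 14.6 times BIRC2 in shFoxO1 olaparib, 0.125 times in shCon olaparib and 3.60 times in shCon DMSO cells.

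Drug-treated knockdown cells were also set beside untreated control cells, across the tables and with no test, after division of the shFoxO1 values by 1.017, the ratio of the shared group between the tables. Genotype and drug both differ in this comparison. Of the 10 genes, 3 were at least 2-fold higher and 1 at least 2-fold lower, where 7.72% and 9.76% of 14173 genes passed the same folds. BIRC3 was at 591 FPKM in shFoxO1 olaparib and 94.0 FPKM in shCon DMSO cells, 6.29-fold higher, and TNFAIP3 at 173 FPKM and 44.3 FPKM, 3.91-fold higher. REL, at 1.82 FPKM in shFoxO1 olaparib and 0.851 FPKM in shCon DMSO cells, was the other gene past 2-fold higher, but with a pseudocount of 1 FPKM its log2 ratio was 0.61 in place of 1.10. NFKB1 was at 29.0 FPKM in shFoxO1 olaparib and 58.2 FPKM in shCon DMSO cells, 2.01-fold lower and just at the limit. With that pseudocount 2 of the 10 genes, BIRC3 and TNFAIP3, stayed past 2-fold. The other 6 stayed within 2-fold, with log2 ratios from -0.76 for NFKBIB to 0.83 for NFKBIA. RELA was at 62.4 FPKM against 77.4 FPKM, RELB at 29.1 FPKM against 43.2 FPKM, and NFKB2 at 83.3 FPKM against 71.4 FPKM.

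The order of levels within the group changed accordingly. In shFoxO1 olaparib cells BIRC3 led, followed by NFKBIA, TNFAIP3, NFKB2 and RELA. In shCon olaparib cells the order was NFKBIA, RELA, NFKB1, NFKB2 and NFKBIB, with BIRC3 eighth. In shCon DMSO cells it was NFKBIA, BIRC3, RELA, NFKB2 and NFKB1. REL was last in all 3. With 1 value per group, whether neighbours in these orders differ beyond their spread cannot be said.

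Of 55 other genes of the pathway, 53 were listed and 49 were tested in each table. With olaparib 24 of the 49 were called lower and 2 higher, beside 23.1% and 15.6% of all tested genes, with a median log2 ratio of -0.50. With shFoxO1 23 were called higher and 3 lower, beside 22.6% and 19.8% of all tested genes, with a median of 0.61. Of the core IKK complex, CHUK (IKK-alpha) was called higher with shFoxO1, at 21.2 FPKM against 7.20 FPKM with shCon in olaparib. IKBKG, the scaffold NEMO, was at 9.13 FPKM with shFoxO1 and 9.43 FPKM with shCon (q-value 0.953 by the authors' deposited table). IKBKB, the main kinase of the canonical arm, was called in neither table, at 12.9 FPKM in olaparib and 19.2 FPKM in DMSO in shCon cells. Of 5 IKK-type kinases, 2 were called lower with olaparib and 3 higher with shFoxO1. Of 15 adaptors, 3 were called lower with olaparib, near the 23.1% of all tested genes. With shFoxO1 4 adaptors were called higher, near the 22.6% of all tested genes, and 1 lower. TRAF1, an NF-kB-induced adaptor, was at 8.59 FPKM with shFoxO1 and 0.450 FPKM with shCon in olaparib, a log2 ratio of 4.26. RBCK1 (HOIL-1), a subunit of the linear ubiquitin ligase, was the adaptor called lower, at 46.6 FPKM with shFoxO1 and 102 FPKM with shCon.

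Among 11 tested genes of other negative regulators, 6 were called lower with olaparib, where all tested genes gave 23.1%. With shFoxO1 7 were called higher and 2 lower, where all tested genes gave 22.6% and 19.8%, so the 2 lower are near that share. TNIP3, which binds A20, had the largest rise at 24.9 FPKM with shFoxO1 and 0.132 FPKM with shCon. It was at 0.130 FPKM in olaparib and 5.21 FPKM in DMSO in shCon cells. OTUD7B (Cezanne), a deubiquitinase of TRAF3, had the largest fall, at 3.96 FPKM with shFoxO1 and 7.24 FPKM with shCon, and PDLIM2 was the other gene called lower, at 64.0 FPKM with shFoxO1 and 92.5 FPKM with shCon. Among 3 nuclear or atypical IkB genes, NFKBIZ rose to 27.8 FPKM with shFoxO1, against 3.35 FPKM with shCon, and NFKBID was called in neither table. In the non-canonical arm MAP3K14 was at 17.1 FPKM with shFoxO1 and 3.93 FPKM with shCon, and at 3.86 FPKM in olaparib and 8.66 FPKM in DMSO in shCon cells, called in both tables. TRAF3, which restrains NIK, was called lower with olaparib, at 16.0 FPKM against 25.2 FPKM in DMSO, and was not called with shFoxO1 at 12.6 FPKM against 16.3 FPKM with shCon.

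Upstream of the pathway, 5 of 8 tested receptors were called lower and 1 higher with olaparib, beside 23.1% and 15.6% of all tested genes. With shFoxO1 4 of the 8 were called higher, beside 22.6%. CD40, a receptor of the TNF family that feeds the non-canonical arm, was at 2.44 FPKM with shFoxO1 and 0.231 FPKM with shCon in olaparib. TLR3, a receptor for double-stranded RNA, was the receptor called higher with olaparib, at 8.71 FPKM against 3.03 FPKM in DMSO. Among the ligands TNF, LTA, LTB and CD40LG were too low to be tested by the authors in either table, with TNF at 0.0355 FPKM with shFoxO1 and listed at 0 in both shCon groups. TNFSF12 was called lower with olaparib, at 3.60 FPKM against 6.13 FPKM in DMSO in shCon cells. It was not called with shFoxO1, at 5.59 FPKM against 3.66 FPKM with shCon (q-value 0.0947 by the authors' deposited table). The other tested ligands, IL1A and IL1B, were called in both tables. IL1A was at 8.07 FPKM with shFoxO1 and 0.514 FPKM with shCon in olaparib, and IL1B at 3.01 FPKM with shFoxO1 and 0.196 FPKM with shCon.

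Of 22 target genes outside the pathway, 16 were tested with olaparib, of which 14 were called lower and 2 higher, beside 23.1% and 15.6% of all tested genes. With shFoxO1 17 were tested, of which 15 were called higher and 1 lower, beside 22.6% and 19.8%. Medians of log2 ratio were -2.17 and 2.14, over 15 genes each with a value above 0 in both groups. These targets were listed with earlier results of these data known, and several were already seen to move. The exceptions were CD83 and TNFAIP8, which were called higher with olaparib. CD83, a surface protein of the immunoglobulin family, was at 19.3 FPKM in olaparib and 9.99 FPKM in DMSO in shCon cells. It was the target called lower with shFoxO1, at 11.2 FPKM against 19.7 FPKM with shCon. TNFAIP8 was at 9.11 FPKM in olaparib and 3.39 FPKM in DMSO in shCon cells, and was not called with shFoxO1. Among secreted targets with values above 0 in both groups, CCL5, a chemokine for T cells, had the largest rise with shFoxO1. It was at 2878 FPKM against 0.851 FPKM with shCon in olaparib. SOD2, the mitochondrial superoxide dismutase, had the largest rise with shFoxO1 among targets inside or on the cell with values above 0 in both groups, at 2176 FPKM against 161 FPKM with shCon. BCL2A1, a BCL2 family survival protein, was called higher at 2.48 FPKM with shFoxO1 and was listed at 0 with shCon.

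**Figure D5:**
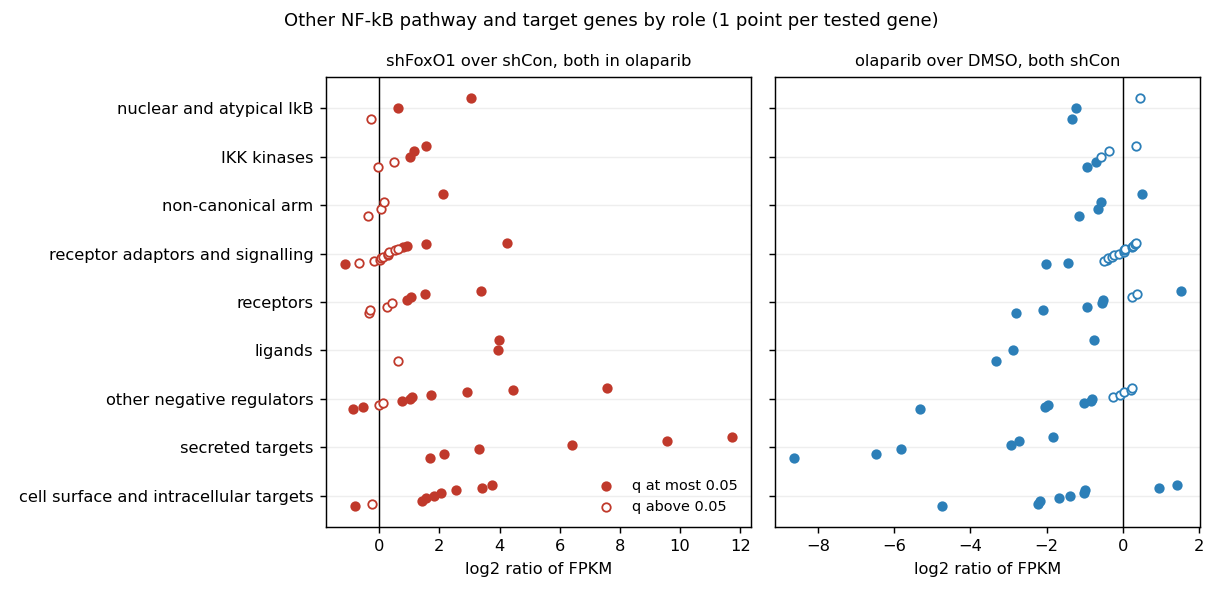
Log2 ratio of FPKM for tested NF-kB pathway and target genes by role, shFoxO1 over shCon in olaparib on the left and olaparib over DMSO in shCon cells on the right, 1 point per gene with values above 0 in both groups and filled where the authors' q-value was at most 0.05. Of the 15 adaptors 10 are open points on the left, where TRAF1 lies furthest out at 4.26, and secreted targets reach 11.72 on the left and -8.62 on the right.

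The genes whose pair of log2 ratios lay nearest to those of NFKB2, NFKBIA and TNFAIP3 were sought among 13315 other genes tested in both tables with a mean of at least 1 FPKM. Over 3 groups such nearness has little power to single out a gene, and the comparisons share a group. Nearest to NFKB2 were ST6GALNAC4, PSMB5 and NNMT, at distances of 0.03, 0.05 and 0.12 on the log2 scale. PSMB5, a catalytic subunit of the proteasome, was at 130 FPKM in shFoxO1 olaparib, 25.8 FPKM in shCon olaparib and 106 FPKM in shCon DMSO cells. Nearest to NFKBIA were AVPI1, AD001527.2 and RUNDC1, all within 0.03. Nearest to TNFAIP3 were GREB1L, PLAUR and PLA2G4C, at 0.06, 0.13 and 0.18. PLAUR, the receptor of the protease urokinase, was at 159 FPKM in shFoxO1 olaparib, 7.70 FPKM in shCon olaparib and 36 FPKM in shCon DMSO cells.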

How the data were processed

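RNA of SUM159 cells was depleted of ribosomal RNA and sequenced in pairs from directional libraries, per the labels' protocols. The protocols name 2 sequencing sites without saying which library went where, so such a batch and the groups cannot be told apart. The submitters' processing notes name CASAVA 1.4, HISAT2 2.1.0, Cufflinks 2.2.1 and the build hg38, with no roles. Per the file headers, the authors gave 1 FPKM value per gene and group, a test statistic (a score, not used here), a p-value and a q-value. How libraries were combined, the length models and the strand setting are not given in the sources used here. The authors' deposited q-values match Benjamini-Hochberg adjustment over tested genes within 5.22e-07.

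Log2 ratios were computed here from FPKM with no pseudocount (Python 3.11.15, pandas 2.3.3, numpy 2.4.6) and functions were tested on simulated data. The shared group was 1.017 times higher in the second table at the median of 13688 genes, and levels set across tables were divided by this. No column of other samples was met (0 left out). The 10 genes, all lists and tests were chosen with earlier results of these data known. Named genes were the 10 members, FOXO1, the largest rise and fall with shFoxO1 in each role and exceptions of small counts. The 3 genes nearest to NFKB2, NFKBIA and TNFAIP3 were named as well. BIRC2, IKBKB, TNF, TNFSF12, IL1B, BCL2A1, the markers and the region-sharing transcripts were named after their values were seen. LTBR and N4BP1 were not analysed here. SOD2 has 2 entries, and the tested one was used.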

Additional observations from a re-analysis of the deposited data

How the results depend on the processing

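The counts of called genes stayed within 1.5 times in every alternative run: 9 or 10 of the 10 genes with olaparib and 6 or 7 with shFoxO1, and 28 to 42 and 34 to 42 of the other pathway and target genes, under a threshold of 0.01, adjustment over every listed gene, a mean of at least 1 FPKM, or a required 2-fold change. The gene lost at 0.01 and under the wider adjustment was REL. The required 2-fold change dropped NFKBIA with olaparib and RELA with shFoxO1. Against untreated control cells, the count past 2-fold was 4, became 3 with no division by 1.017 or with quantile normalization, and 2 with a pseudocount of 1 FPKM. No share of all genes under these alternatives stands beside the counts. They therefore show only how far the counts within these lists held, and not how the lists compare with all genes. Of the single ratios, that of REL with shFoxO1 reversed to 0.24 with quantile normalization, from a value that was not called; the cause was not tested. Quantile normalization shifted the median of all tested genes by 0.09 with olaparib and -0.05 with shFoxO1. With olaparib it brought the log2 ratios to -0.50 for NFKBIA, -0.95 for NFKB1, -0.88 for RELA and 0.83 for REL. No paired analysis was possible because the tables hold 1 value per group, and for the same reason libraries could not be left out in turn and the replicate block was not run. REL, near 1 FPKM, rests on the thinnest signal, and the depth behind it is unknown.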
